A study of Homo sapiens with 6 samples.

Results

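The glutamate receptor genes, their auxiliary subunits and the vesicular glutamate transporters were followed in human forebrain organoids exposed to the amyloid-β peptide Aβ42. The members were taken by gene symbol: AMPA receptor subunits GRIA1 to GRIA4, kainate receptor subunits GRIK1 to GRIK5, NMDA receptor subunits of the GRIN1, GRIN2 and GRIN3 types, the delta receptors, the metabotropic receptors (the GRM family), the auxiliary and anchoring genes CACNG1 to CACNG8, CNIH1 to CNIH4, NETO1, NETO2, GRIP1 and GRIP2, and the transporters SLC17A6, SLC17A7 and SLC17A8. All 45 were found among the 18056 genes of the deposited table: 4 AMPA, 5 kainate, 7 NMDA, 2 delta, 8 metabotropic, 16 auxiliary and 3 vesicular transporter genes. The organoids were of the dorsal forebrain type and were grown from DYR0100, an established human induced pluripotent stem cell line of wild-type genotype, so all values come from 1 genetic background. The comparison was between 3 libraries of organoids given vehicle and 3 libraries of organoids given 5 µM Aβ42, both for 6 days and in 1 labelled batch, and it asks which transcripts differ after exposure. The series describes the replicates as independent biological replicates, and whether a library pools several organoids is not stated.

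Glutamate is the main excitatory transmitter of the cortex. Vesicular transporters load it into synaptic vesicles, ionotropic receptors of the AMPA, kainate and NMDA classes open as tetrameric cation channels when it binds, and metabotropic receptors signal through G proteins. The gating of AMPA and kainate receptors and their delivery to the synapse depend on auxiliary proteins. These are the transmembrane AMPA receptor regulatory proteins (TARPs, from members of the CACNG family), the cornichons (CNIH) and, for kainate receptors, the NETO proteins. Subunit make-up changes as cortical neurons mature, the best known example being the postnatal rise of GRIN2A relative to GRIN2B, and soluble Aβ assemblies are widely studied for their effects on synaptic AMPA and NMDA receptors.

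Depth was nearly equal, with 16465390 to 16742958 estimated counts per library. Deviations from the group means correlated between libraries of the same replicate number, at 0.181, 0.388 and 0.129 for replicates 1, 2 and 3. Libraries of different numbers were not compared in this way. A fit that blocks on replicate number therefore stands beside the unblocked fit. The series names no such pairing, so the block rests on these same data alone. Of the single libraries left out, Aβ42 replicate 2 was the one without which members passed the adjusted threshold, and counts without it are given. The labels name the tissue as forebrain organoid, and markers of both neurons and neural progenitors were present. All 8 pan-neuronal, all 8 excitatory cortical neuron and all 8 radial glia markers had enough counts to be tested, and the pan-neuronal markers summed to 5880 to 6717 CPM (counts relative to the TMM-scaled library size) per library. Radial glia markers summed to 3176 to 3265 CPM in vehicle and 3206 to 3380 CPM with Aβ42, and on the TPM scale their sum was above the pan-neuronal one (7727 ± 153 and 4840 ± 136 TPM in vehicle). The 8 inhibitory neuron markers summed to 7.36 to 24.6 CPM, and 5 of 7 microglial markers, TREM2 and C1QA among them, were at 0 in all 6 libraries. The summed level of markers moved with the comparison, from 6262 to 6717 CPM in vehicle to 5880 to 6116 CPM with Aβ42 for the pan-neuronal list, from 2074 to 2159 CPM to 1934 to 2027 CPM for the excitatory list, and from 572 to 676 CPM to 379 to 523 CPM for the 7 markers of cycling cells. The neuronal markers did not all move one way. Fold changes were above 0 for 4 and below 0 for 4 of the 8 pan-neuronal markers. Of the 8 excitatory markers 2 were higher and 6 lower, and with the block FEZF2 rose while NEUROD2 and TBR1 fell. All 7 markers of cycling cells were lower. Choroid plexus markers were highest in both replicates 2, at 938 and 877 CPM against 382 to 485 CPM elsewhere. The part of these shifts in the results on receptor genes was not tested. In bulk tissue, fewer cells of a type and less RNA per cell cannot be told apart.

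Of the 45 members, 41 had enough counts to be tested. In the quasi-likelihood test of edgeR without a block none of them reached the adjusted threshold of 0.05, and none of all 13842 tested genes did (0%). Limma-voom called none either. The DESeq2 Wald test called 6 members, all lower with Aβ42, against 5.88% of all genes (2.81% higher and 3.07% lower). It gave no adjusted p-value for several members, GRM4 and GRM8 among them. Without adjustment, 18 members had a p-value under 0.05 in edgeR, 7 higher and 11 lower, or 43.9% of those tested against 23.9% of all genes (12.4% higher and 11.5% lower). For 15 members the groups did not overlap, 4 being higher and 11 lower with Aβ42, or 36.6% against 27% of all genes (13.6% higher and 13.4% lower). In the blocked fit 14 members passed an adjusted p-value of 0.05, or 34.1% against 14.2% of all genes. In that fit GRIK4, GRM4, CACNG5, CACNG7 and CNIH3 rose (5 members, against 7.12% of all genes) and GRIA3, GRIK1, GRIK3, GRIN2B, GRM8, CACNG4, CNIH2, NETO2 and SLC17A6 fell (9 members, against 7.05%). Without Aβ42 replicate 2 and without a block, 13 members passed, 7 higher and 6 lower, against 23.1% of all genes (11.5% higher and 11.6% lower), and 11 of the 14 were among them. Among the 14 the groups overlapped for GRIK1, GRM8, CACNG7 and CNIH3. The median log2 fold change of the 41 members was -0.08, where that of all tested genes was 0.00.

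**Figure D1:**
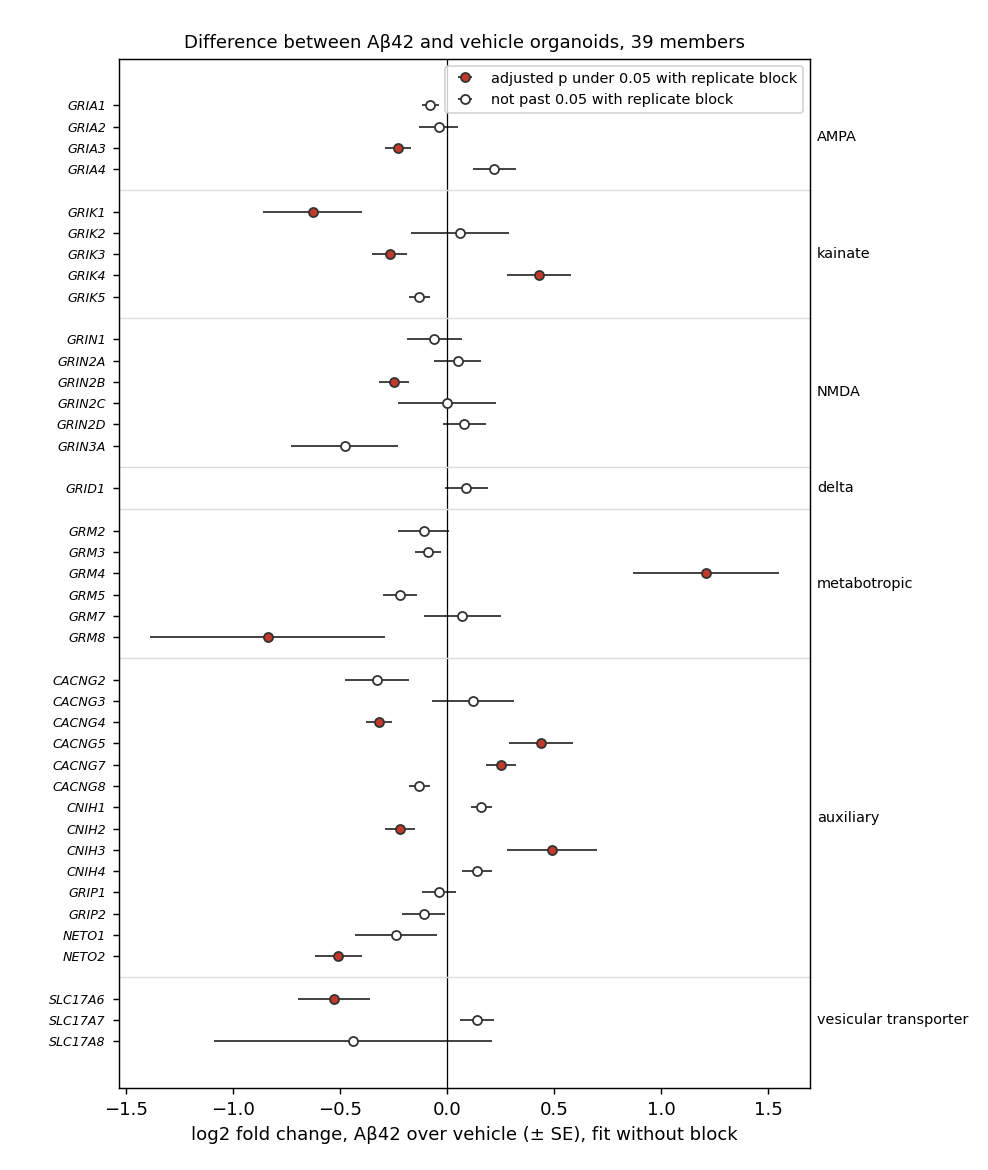
Log2 fold change of Aβ42 over vehicle for 39 tested members, grouped by class, from edgeR's quasi-likelihood fit without a block (points, with the standard error as bars). Filled points mark the 14 members with an adjusted p-value under 0.05 in the fit with the replicate block, 5 to the right of 0 and 9 to the left, with values from -0.84 for GRM8 to 1.21 for GRM4.

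Calls fell in every class but the delta receptors. Kainate receptors and auxiliary genes held most of the calls with the replicate block in edgeR, in both directions in each class. These were 3 of 5 and 6 of 14 tested members, or 60% and 42.9%, against 14.2% of all genes. The AMPA receptors had 1 call of 4, the NMDA receptors 1 of 6, the metabotropic receptors 2 of 7, the vesicular transporters 1 of 3 and the delta receptors 0 of 2. Median log2 fold changes were -0.06 for AMPA, -0.13 for kainate, -0.03 for NMDA, -0.09 for metabotropic and -0.08 for auxiliary genes, and -0.44 for the 3 transporters. The difference between classes was not tested.

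Upstream sequence is shown for 6 of the 14 members called with the block, 5 that fell and 1 that rose, to give the regulatory context of genes that moved in opposite directions. These 6 were picked by hand. Each run is the 250 bases next to the most upstream gene start listed in RefSeq (GRCh38.p14), 5′ to 3′ on the strand of the gene, and capitals mark matches to motifs searched on both strands. These were the Sp1 GC box GGGCGG, the CCAAT box CCAAT, the NRF1 motif, and TTCAGCACC and GGACAGC, the left and right parts of the REST element, the binding sequence of a repressor of neuronal genes. Matches may overlap, as the GC boxes of NETO2 do.
NETO2, chr16:47143946-47144195, minus strand: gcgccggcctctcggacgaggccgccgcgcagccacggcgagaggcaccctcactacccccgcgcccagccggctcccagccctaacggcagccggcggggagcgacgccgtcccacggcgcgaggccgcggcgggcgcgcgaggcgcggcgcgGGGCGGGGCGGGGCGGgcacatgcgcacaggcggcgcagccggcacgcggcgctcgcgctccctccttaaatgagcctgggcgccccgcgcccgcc
GRIK3, chr1:37034516-37034765, minus strand: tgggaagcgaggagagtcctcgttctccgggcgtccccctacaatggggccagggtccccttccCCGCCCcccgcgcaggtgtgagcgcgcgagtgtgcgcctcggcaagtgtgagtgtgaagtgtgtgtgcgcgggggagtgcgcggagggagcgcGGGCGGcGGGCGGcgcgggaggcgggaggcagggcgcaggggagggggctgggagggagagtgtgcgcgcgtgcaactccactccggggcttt
GRIN2B, chr12:13982135-13982384, minus strand: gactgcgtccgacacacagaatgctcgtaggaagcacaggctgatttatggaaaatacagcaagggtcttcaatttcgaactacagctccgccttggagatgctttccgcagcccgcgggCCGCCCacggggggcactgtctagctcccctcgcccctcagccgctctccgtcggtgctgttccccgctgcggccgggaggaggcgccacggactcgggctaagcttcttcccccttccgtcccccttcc
SLC17A6, chr11:22338131-22338380, plus strand: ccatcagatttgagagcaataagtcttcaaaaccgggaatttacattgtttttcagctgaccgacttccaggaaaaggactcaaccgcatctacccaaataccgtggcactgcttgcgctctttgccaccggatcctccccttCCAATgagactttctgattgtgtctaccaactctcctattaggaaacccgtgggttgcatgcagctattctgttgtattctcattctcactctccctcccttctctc
CNIH2, chr11:66277925-66278174, plus strand: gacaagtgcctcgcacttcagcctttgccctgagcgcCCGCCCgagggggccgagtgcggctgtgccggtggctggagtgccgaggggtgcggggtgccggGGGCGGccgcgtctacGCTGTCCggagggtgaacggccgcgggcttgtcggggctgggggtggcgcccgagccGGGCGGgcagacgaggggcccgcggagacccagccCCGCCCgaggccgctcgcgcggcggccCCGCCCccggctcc
GRIK4, chr11:120511498-120511747, plus strand: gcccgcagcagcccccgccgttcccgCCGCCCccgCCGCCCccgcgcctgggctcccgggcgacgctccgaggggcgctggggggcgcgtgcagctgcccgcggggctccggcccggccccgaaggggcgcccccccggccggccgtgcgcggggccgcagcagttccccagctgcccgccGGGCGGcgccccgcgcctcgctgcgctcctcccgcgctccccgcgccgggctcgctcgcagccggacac
GC content was 82.4% for NETO2, 73.6% for GRIK3, 63.6% for GRIN2B, 80% for CNIH2 and 86.8% for GRIK4, and it was 47.2% for SLC17A6. The GC box occurred 3 times upstream of NETO2, GRIK3 and GRIK4, 5 times upstream of CNIH2 and 1 time upstream of GRIN2B, and SLC17A6 held a CCAAT box and no GC box. CNIH2 also held the right part of the REST element. GC boxes were in 42.6% and CCAAT boxes in 32% of all 35116 RefSeq windows of this length, so these matches are common, whereas the right part of the REST element was in 4.76% and the left part in 0.288%. The windows of both the gene that rose (GRIK4) and of 4 that fell held GC boxes. Among called members not printed, GC boxes were also found upstream of CNIH3, which rose, and GRM8, which fell. RefSeq windows were found for 29 members, some with several starts. Each part of the REST element was found upstream of GRIA2 and GRM2, and the NRF1 motif, present in 5.07% of all windows, upstream of GRIA2 and of a GRIN2B start other than the one printed.

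The AMPA receptor subunits GRIA1 and GRIA2 were the most abundant receptor transcripts. On the TPM scale, which corrects for gene length, GRIA1 was at 178 ± 4.96 TPM in vehicle and 163 ± 2.76 TPM with Aβ42 (mean ± SD, n = 3 each) and GRIA2, the subunit that makes the channel impermeable to calcium once its RNA is edited, at 162 ± 6.65 TPM in vehicle and 151 ± 21.9 TPM with Aβ42. GRIA3 followed at 84.97 ± 7.22 TPM in vehicle and GRIA4 at 18.1 ± 1.8 TPM. GRIA1 was above GRIA2 in all 3 vehicle libraries and below it in Aβ42 replicate 1, and both were above GRIA3 and GRIA4 in all 6 libraries.

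GRIA3 (Entrez gene ID 2892) was the AMPA subunit that fell with the block. Its levels, always in the order of replicates 1, 2 and 3, were 154, 179.7 and 172 CPM in the vehicle libraries and 145, 147 and 139 CPM in the Aβ42 libraries, so all Aβ42 values lay below all vehicle values. Its log2 fold change was -0.23 ± 0.06 (SE), with an adjusted p-value in edgeR of 0.0781 without and 0.0114 with the replicate block. GRIA1 values did not overlap either, at 383, 379.6 and 399.8 CPM in the vehicle libraries and 369.8, 362 and 367 CPM in the Aβ42 libraries, but the difference was small (log2 fold change -0.08 ± 0.04, adjusted p-value 0.285 in edgeR and 0.281 with the block). GRIA4 differed in the other direction, from 26.4 ± 2.52 to 30.9 ± 3.76 CPM (log2 fold change 0.22 ± 0.10, adjusted p-value 0.209 in edgeR and 0.0534 with the block), and the groups overlapped, since Aβ42 replicate 2 lay below the 2 higher vehicle libraries. Without that library GRIA4 passed (0.30, adjusted p-value 0.0331 in edgeR), and its difference shrank to 0.13 (0.582) when Aβ42 replicate 3 was left out. GRIA2 overlapped between groups, with Aβ42 replicate 1 as the highest library of all 6 and Aβ42 replicate 2 as the lowest: 331, 346 and 352 CPM in the vehicle libraries and 386, 297 and 319 CPM in the Aβ42 libraries. Its log2 fold change was -0.04 ± 0.09, and it was 0.04 without Aβ42 replicate 2.

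**Figure D2:**
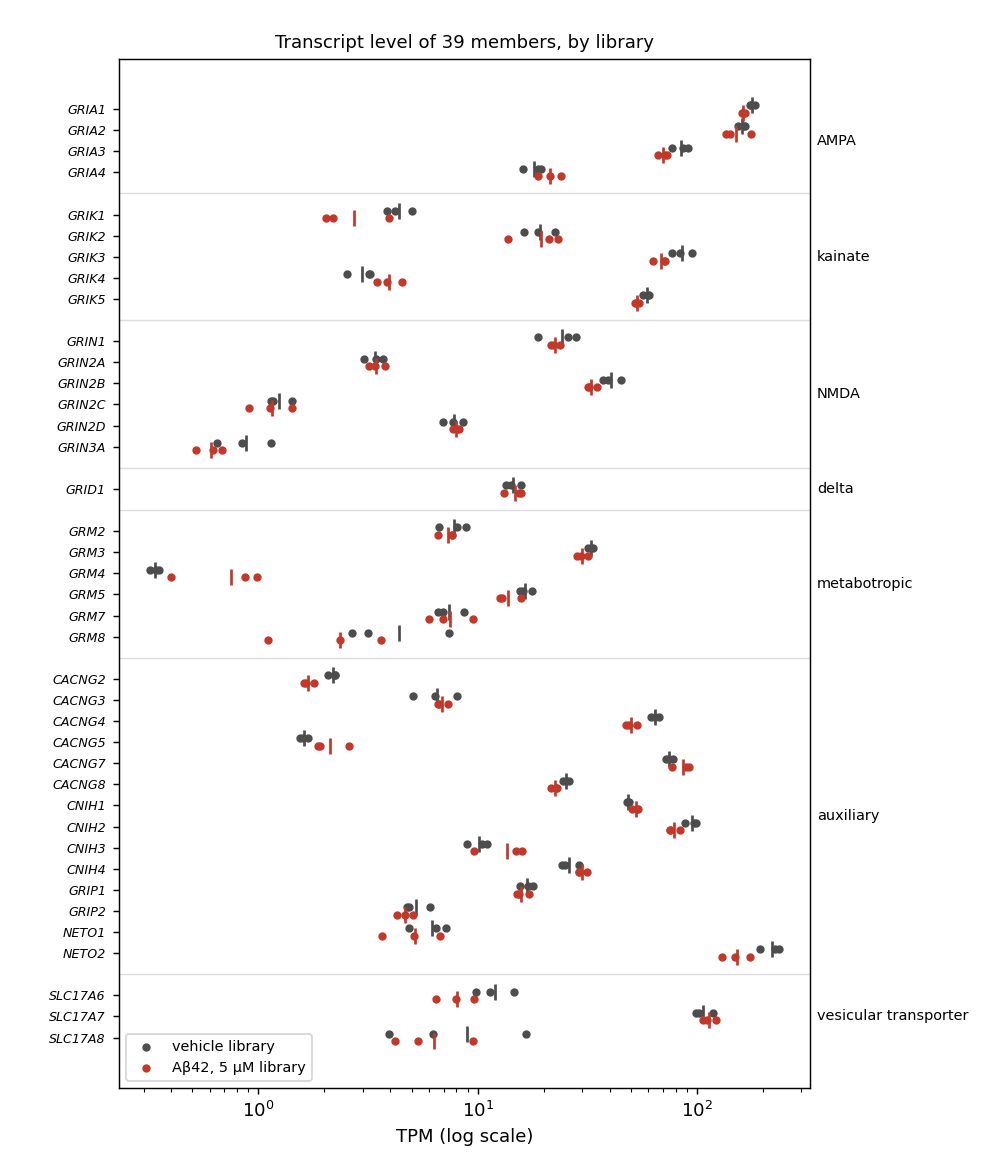
Transcript level of 39 tested members in TPM on a log axis, grouped by class; each point is a library (grey, 3 vehicle; red, 3 Aβ42) and the tick is the group mean. The range runs from GRM4, at 0.32 to 0.98 TPM, to NETO2, GRIA1 and GRIA2, above 100 TPM in all 6 libraries.

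The auxiliary subunits of AMPA receptors had calls in both directions. Among the TARPs, CACNG4 fell and CACNG5 and CACNG7 rose with the block, and among the cornichons CNIH2 fell and CNIH3 rose. CACNG4 encodes γ-4, a TARP prominent in the developing brain, and was at 84.4, 85.5 and 90.4 CPM in the vehicle libraries and 65.6, 73.1 and 69.5 CPM in the Aβ42 libraries, with no overlap between groups. It differed by a log2 fold change of -0.32 ± 0.06, with an adjusted p-value in edgeR of 0.0684, the smallest of all members, and of 0.00166 with the block. The value of 0.0684 was also the smallest over all 13842 tested genes, and other genes, PTK2B among them, shared it. CACNG4 was the single member to pass when no filter on low counts was used (0.0321).

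CACNG7, which encodes γ-7, was at 78.5, 71.3 and 74.3 CPM in the vehicle libraries and 94.5, 78.5 and 93.2 CPM in the Aβ42 libraries. Aβ42 replicate 2 lay just below vehicle replicate 1 (78.45 and 78.46 CPM), and the other Aβ42 libraries lay above all vehicle libraries. Its log2 fold change was 0.25 ± 0.07 (adjusted p-value 0.0974 in edgeR without and 0.0097 with the block). CACNG5 (γ-5) was lower in level but did not overlap between groups, at 7.27, 6.51 and 6.77 CPM in the vehicle libraries and 11.3, 8.08 and 8.46 CPM in the Aβ42 libraries. Its log2 fold change was 0.44 ± 0.15 (0.121 in edgeR and 0.0331 with the block), and it was 0.27 without Aβ42 replicate 1, the highest library. The estimated counts of CACNG5 were not whole in 3 libraries, so some of its reads may have been divided with another feature.

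The remaining CACNG genes did not pass with the block. CACNG8 (γ-8), the TARP of forebrain excitatory neurons, was at 87.3, 88.3 and 92.5 CPM in the vehicle libraries and 83.3, 81.95 and 80.2 CPM in the Aβ42 libraries, lower without overlap (log2 fold change -0.13 ± 0.05, adjusted p-value 0.155 in edgeR and 0.136 with the block). CACNG2 (γ-2, stargazin) was at 4.87, 4.86 and 4.57 CPM in the vehicle libraries and 3.96, 3.68 and 3.72 CPM in the Aβ42 libraries, also lower without overlap (-0.33 ± 0.15, 0.211 in edgeR and 0.182 with the block). Both TARPs are known for driving AMPA receptors to synapses. CACNG3 (γ-3) was at 4.26 ± 0.981 and 4.65 ± 0.254 CPM with overlapping values. CACNG1 and CACNG6, whose products are known from muscle calcium channels, had 0 to 6 counts per library and were not tested. On the TPM scale the order in vehicle was CACNG7 (74.98 ± 2.81), CACNG4 (64.5 ± 2.65), CACNG8 (25.3 ± 0.875), CACNG3 (6.5 ± 1.48), CACNG2 (2.18 ± 0.0896) and CACNG5 (1.61 ± 0.0721). With Aβ42 the gap between the leading pair was wider, 86.1 ± 7.9 TPM for CACNG7 and 49.97 ± 2.97 TPM for CACNG4, a difference of differences that was not tested.

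Cornichons assist export of AMPA receptors from the endoplasmic reticulum and slow their closing. CNIH2, the most abundant of them at 95.03 ± 5.44 TPM in vehicle and 78.5 ± 5.05 TPM with Aβ42, was at 38.8, 42.2 and 41.7 CPM in the vehicle libraries and 33.7, 33.3 and 38.3 CPM in the Aβ42 libraries, with no overlap. This is a log2 fold change of -0.22 ± 0.07 (adjusted p-value 0.12 in edgeR and 0.044 with the block). CNIH3 was at 9.25, 7.05 and 7.99 CPM in the vehicle libraries and 13.7, 7.6 and 12.8 CPM in the Aβ42 libraries, and Aβ42 replicate 2 lay among the vehicle libraries. Its log2 fold change was 0.49 ± 0.21 (0.202 in edgeR and 0.0217 with the block). CNIH1, a cargo receptor of general secretion, was at 89.9, 88.7 and 87.9 CPM in the vehicle libraries and 101, 99.3 and 96.8 CPM in the Aβ42 libraries, higher without overlap (0.16 ± 0.05, 0.0947 in edgeR, 0.0561 with the block). CNIH4 went from 30.98 ± 1.63 to 34.1 ± 2.12 CPM (log2 fold change 0.14 ± 0.07, 0.269 in edgeR).

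GRIP1 and GRIP2, scaffold proteins that bind the tails of GRIA2 and GRIA3, overlapped between groups. GRIP1 was at 32.1 ± 2.4 and 31.3 ± 1.99 CPM in the vehicle and Aβ42 groups (log2 fold change -0.04 ± 0.08), and GRIP2 at 24.8 ± 2.61 and 22.9 ± 1.95 CPM (-0.11 ± 0.10). The counts of GRIP2 were fractional in all 6 libraries.

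In the kainate system the largest transcript pool belonged to the auxiliary gene NETO2, which fell with the block, as did the subunits GRIK3 and GRIK1, while GRIK4 rose. NETO2 (Entrez gene ID 81831) encodes a transmembrane partner that raises the activity of kainate receptors and also binds the chloride exporter KCC2. It was the most abundant member in vehicle, with 219.9 ± 22.1 TPM in vehicle and 152 ± 22.2 TPM with Aβ42. Per library it was at 266, 316 and 308 CPM in the vehicle libraries and 176, 239 and 209.8 CPM in the Aβ42 libraries, so that the highest Aβ42 library lay below the lowest vehicle library. The log2 fold change of -0.51 ± 0.11 had an adjusted p-value in edgeR of 0.0779 without the block, 2.81e-05 with it and 3.65e-05 in DESeq2. The counts of NETO2 were fractional in all 6 libraries, so some of its reads may be shared between features.

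GRIK3, the kainate subunit with the highest level, was at 85.4 ± 8.82 TPM in vehicle and 68.7 ± 4.65 TPM with Aβ42. Its CPM values were 364, 316 and 294 in vehicle and 279.7, 273 and 252 with Aβ42, without overlap, and each pair of same-numbered libraries fell. It had a log2 fold change of -0.27 ± 0.08 (adjusted p-value 0.0916 in edgeR and 0.00268 with the block), and it was -0.18 without vehicle replicate 1, the highest library. GRIK1 was far lower in level, at 5.83, 7.72 and 6.22 CPM in the vehicle libraries and 3.35, 5.94 and 3.42 CPM in the Aβ42 libraries. Aβ42 replicate 2 lay within the vehicle range and the other Aβ42 libraries lay below it, so the log2 fold change of -0.63 ± 0.23 (0.137 in edgeR, 0.0111 with the block) was -0.96 without Aβ42 replicate 2.

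GRIK4 and GRIK5 encode the high-affinity subunits that need a GRIK1, GRIK2 or GRIK3 partner. GRIK4 rose with the block, at 5.77, 6.99 and 7.01 CPM in the vehicle libraries and 8.41, 7.72 and 10.4 CPM in the Aβ42 libraries, without overlap (log2 fold change 0.43 ± 0.15, adjusted p-value 0.128 in edgeR and 0.0432 with the block). GRIK5, present at 59.04 ± 1.92 TPM in vehicle against 2.98 ± 0.385 TPM for GRIK4, had values of 106, 103 and 99.2 CPM in the vehicle libraries and 91.3, 95.8 and 95.1 CPM in the Aβ42 libraries, lower without overlap, and did not pass (log2 fold change -0.13 ± 0.05, 0.156 in edgeR and 0.134 with the block). GRIK2 was at 34.8, 29.4 and 41.4 CPM in the vehicle libraries and 43.9, 25.5 and 40.6 CPM in the Aβ42 libraries. Both replicates 2 were the lowest library of their group, and the groups overlapped (log2 fold change 0.06 ± 0.23). NETO1, the close relative of NETO2, was at 6.16 ± 1.21 TPM in vehicle, and its values overlapped, from 12.7 ± 2.05 to 10.8 ± 2.9 CPM (log2 fold change -0.24 ± 0.19, 0.474 in edgeR). The NETO1 difference ranged from -0.08 without Aβ42 replicate 1 to -0.47 without Aβ42 replicate 3, and it was -0.14 without vehicle replicate 3.

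**Figure D3:**
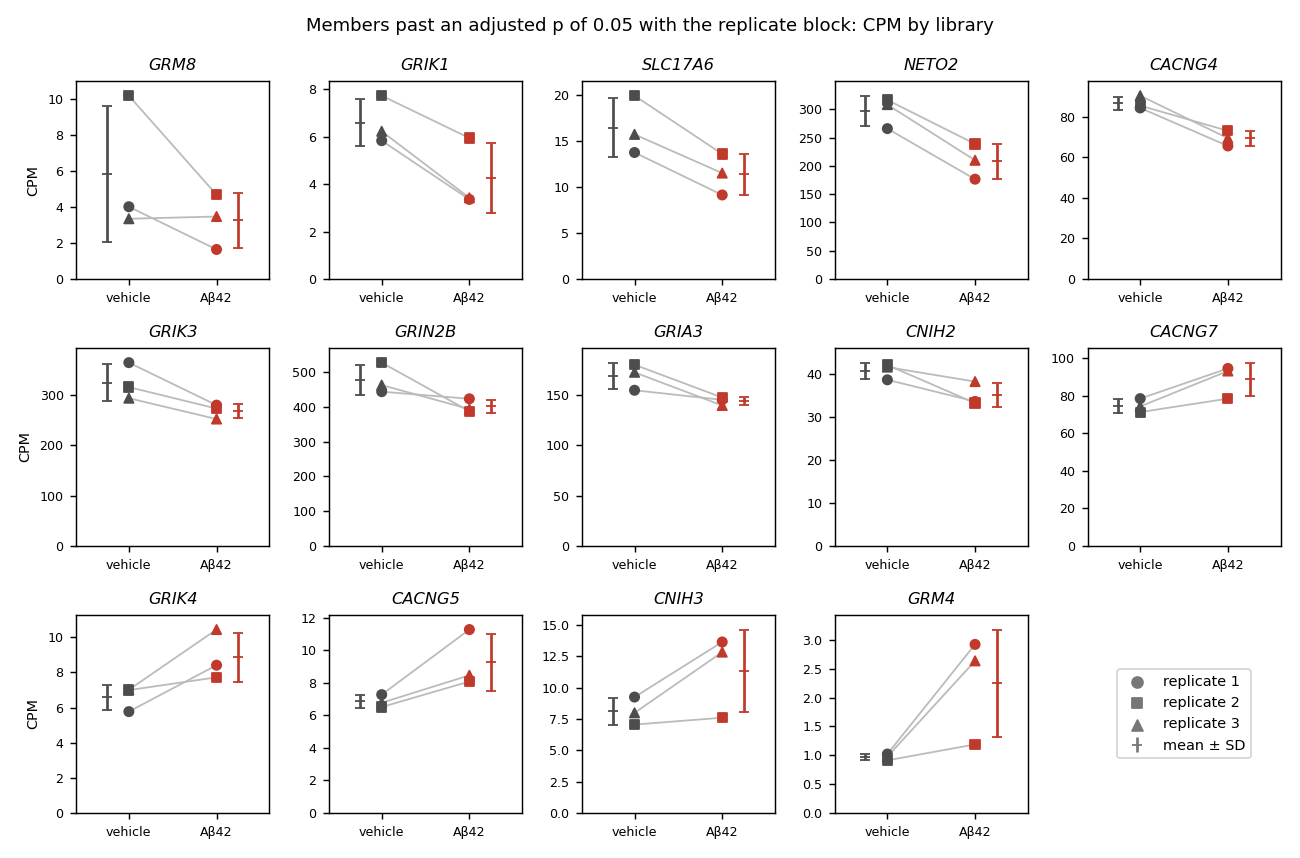
CPM by library (vertical axes from 0) for the 14 members past an adjusted p-value of 0.05 in edgeR with the replicate block, ordered by fold change; lines join libraries of the same replicate number and bars give mean ± SD (n = 3). All same-number pairs move one way except replicate 3 of GRM8, and Aβ42 replicate 2 is the Aβ42 library nearest to the vehicle mean in 11 of the 14.

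Among NMDA receptor subunits GRIN2B fell with the block and no other subunit passed. GRIN2B (Entrez gene ID 2904), the GRIN2 subunit of fetal and early postnatal cortex, was at 444, 527 and 462 CPM in the vehicle libraries and 423, 387 and 394 CPM in the Aβ42 libraries. All Aβ42 values lay below all vehicle values, by a log2 fold change of -0.25 ± 0.07 (adjusted p-value 0.0818 in edgeR, 0.0181 with the block and 0.00932 in DESeq2). GRIN1, the obligatory subunit that binds glycine or D-serine, overlapped between groups at 40.4, 43.05 and 29.5 CPM in the vehicle libraries and 35.9, 34.1 and 38.6 CPM in the Aβ42 libraries, with vehicle replicate 3 as the lowest library (log2 fold change -0.06 ± 0.13). GRIN2A, the subunit of the mature cortex, was at 16.6, 21.2 and 20.2 CPM in the vehicle libraries and 17.9, 20.01 and 22.2 CPM in the Aβ42 libraries, with a log2 fold change of 0.05 ± 0.11.

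On the TPM scale GRIN2B led in vehicle at 40.5 ± 4.04, followed by GRIN1 at 24.3 ± 4.82, GRIN2D at 7.78 ± 0.815, GRIN2A at 3.39 ± 0.339, GRIN2C at 1.24 ± 0.154 and GRIN3A at 0.877 ± 0.247. GRIN2C and GRIN2D had log2 fold changes of -0.00 ± 0.23 and 0.08 ± 0.10, and GRIN3A, a subunit that lowers calcium entry and is found in juvenile neurons, had one of -0.48 ± 0.25 at 27 to 58 counts per library (adjusted p-value 0.271 in edgeR). The GRIN3A value was -0.24 without vehicle replicate 3, its highest library (0.646). GRIN3B, known from motor neurons, had 3 to 12 counts and was not tested.

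The ratio of GRIN2B to GRIN2A was 12.3, 12.2 and 11.4 across the vehicle libraries and 10.9, 9.43 and 8.46 across the Aβ42 libraries, on the TPM scale. On that scale the 3 Aβ42 libraries had the 3 lowest ratios. The log2 ratio went from 3.58 ± 0.06 to 3.26 ± 0.19, a difference of -0.32 with an exact permutation p-value of 0.1 (two-sided), the smallest that 3 libraries against 3 allow, and of 0.4 after adjustment over the 4 ratios and shares compared in this way. No value of this test can pass 0.05. The difference in log2 ratio held its sign and ran from -0.42 to -0.23 when libraries were left out singly. With CPM in place of TPM it was -0.3 with an exact permutation p-value of 0.2, so the groups were not fully separated on that scale. For GRIN3A over GRIN1 the log2 ratio was -4.81 ± 0.67 in vehicle and -5.23 ± 0.17 with Aβ42 (exact permutation p-value 0.4, adjusted 0.533, n = 3 each), a difference of -0.42 that was -0.04 without vehicle replicate 3.

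Delta receptors bind cerebellins rather than being opened by glutamate, and GRID1 overlapped between groups. GRID1 was at 14.5 ± 1.16 TPM in vehicle and 14.8 ± 1.42 TPM with Aβ42, and per library at 22.1, 23.1 and 21.3 CPM in the vehicle libraries and 25.6, 20.2 and 25.1 CPM in the Aβ42 libraries (log2 fold change 0.09 ± 0.10, adjusted p-value 0.585 in edgeR). Aβ42 replicate 2 was its lowest library.

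Metabotropic receptors were led by GRM3 and GRM5. GRM3, a group II receptor that lowers cyclic AMP, was at 32.9 ± 0.784 TPM in vehicle and 29.9 ± 1.72 TPM with Aβ42, and its levels overlapped through Aβ42 replicate 2, at 54.7, 50.8 and 52.6 CPM in the vehicle libraries and 48.5, 51.7 and 47.9 CPM in the Aβ42 libraries (log2 fold change -0.09 ± 0.06, adjusted p-value 0.354 in edgeR). GRM5, the group I receptor that couples to phospholipase C and has been described as a co-receptor for Aβ oligomers bound to prion protein, was at 51.3, 55.3 and 49.1 CPM in the vehicle libraries and 50.4, 40.6 and 42.6 CPM in the Aβ42 libraries. Aβ42 replicate 1 lay within the vehicle range and the other Aβ42 libraries lay below it, and the log2 fold change was -0.22 ± 0.08 (0.153 in edgeR, 0.0621 with the block). GRM2, at 7.83 ± 1.11 TPM in vehicle, had a log2 fold change of -0.11 ± 0.12.

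The largest fold change of all members was that of GRM4, a group III presynaptic receptor, at the lowest level of those tested. GRM4 had 17, 15 and 16 counts across the vehicle libraries and 48, 20 and 44 counts across the Aβ42 libraries, or 0.97 ± 0.0549 CPM and 2.25 ± 0.932 CPM. The groups did not overlap, but Aβ42 replicate 2 stood close to vehicle. The log2 fold change was 1.21 ± 0.34, with an adjusted p-value of 0.0908 in edgeR and 0.0114 with the block, and it was 1.51 without Aβ42 replicate 2. GRM8, another group III receptor, was at 4.03, 10.2 and 3.35 CPM in the vehicle libraries and 1.65, 4.69 and 3.48 CPM in the Aβ42 libraries. Vehicle replicate 2 was the highest library by far and the groups overlapped. It fell with the block (0.0316 in edgeR, 0.402 without it) although the pair of replicates 3 did not fall. Its log2 fold change of -0.84 ± 0.55 shrank to -0.17 when vehicle replicate 2 was left out and to -0.52 when Aβ42 replicate 1 was. GRM7, the group III receptor with the highest level at 7.39 ± 1.09 TPM in vehicle, overlapped between groups (log2 fold change 0.07 ± 0.18). GRM6, the receptor of retinal bipolar cells, had 5 to 12 counts and was not tested.

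Of the vesicular transporters SLC17A6 fell with the block and SLC17A7 did not pass. SLC17A7 encodes VGLUT1, the main transporter of mature cortical neurons, and was the leading transporter at 106 ± 10.4 TPM in vehicle and 113 ± 7.94 TPM with Aβ42. Its CPM values were 129.6, 109 and 107 in vehicle and 136, 118 and 126 with Aβ42, and overlapped (log2 fold change 0.14 ± 0.08, adjusted p-value 0.326 in edgeR and 0.0978 with the block). SLC17A6, which encodes VGLUT2 of subcortical and early cortical neurons, was at 13.8, 19.9 and 15.7 CPM in the vehicle libraries and 9.14, 13.6 and 11.5 CPM in the Aβ42 libraries. Aβ42 replicate 2, the highest of its group, lay just below vehicle replicate 1, the lowest of its own, and each same-numbered pair fell. The difference was -0.53 ± 0.17 on the log2 scale (0.117 in edgeR, 0.00216 with the block and 0.0429 in DESeq2). SLC17A8 (VGLUT3) varied widely within vehicle, at 6.07, 24.8 and 9.45 CPM in the vehicle libraries and 8.29, 14.6 and 6.66 CPM in the Aβ42 libraries, with both replicates 2 highest in their group (log2 fold change -0.44 ± 0.65).

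The log2 ratio of SLC17A6 to SLC17A7 in TPM was -3.58, -2.80 and -3.11 across the vehicle libraries and -4.24, -3.46 and -3.80 across the Aβ42 libraries. The groups overlapped because Aβ42 replicate 2 lay above vehicle replicate 1, but the ratio was lower with Aβ42 in each of the 3 same-numbered pairs. The means were -3.17 ± 0.39 and -3.84 ± 0.39, a difference of -0.67 (exact permutation p-value 0.2, adjusted 0.4, two-sided, n = 3 each). With the replicate block the exact permutation p-value was 0.25, the smallest that 3 pairs allow.

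Subunit make-up within a class, as each gene's share of the summed TPM of its class, is described mainly for the leading subunits. Within the AMPA class GRIA2 took 36.3%, 36.7% and 36.5% in vehicle and 40.5%, 34.7% and 36.1% with Aβ42, so vehicle libraries were nearly equal and Aβ42 libraries lay on both sides of them (means 36.5% ± 0.19 and 37.1% ± 3.03, difference 0.65 percentage points, exact permutation p-value 1). GRIA3 took 19.2% ± 1.12 in vehicle and 17.4% ± 1.22 with Aβ42 and GRIA4 4.09% ± 0.453 in vehicle and 5.28% ± 0.701 with Aβ42. Of the kainate subunits, GRIK3 took 49.9% ± 2.75 in vehicle and 46.4% ± 2.18 with Aβ42 and GRIK5 34.5% ± 1.04 in vehicle and 36.02% ± 1.66 with Aβ42. Of the NMDA subunits, GRIN2B took 51.8% ± 3.16 in vehicle and 47.6% ± 2.01 with Aβ42. GRIN1 took 30.8% ± 3.91 in vehicle and 32.6% ± 1.23 with Aβ42. The groups overlapped for all of these shares but that of GRIA4, which was higher with Aβ42. Shares of GRIK4 (1.75% ± 0.302 in vehicle and 2.67% ± 0.4 with Aβ42) and GRIN2D (10.03% ± 1.68 and 11.53% ± 0.229) were also higher without overlap. So was that of GRM4 among the metabotropic receptors (0.471% ± 0.0388 and 1.18% ± 0.479). Only the GRIA2 share was tested.

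Class totals in TPM were lower with Aβ42, without overlap, in 4 of the 7 classes. The 5 kainate subunits summed to 180.3, 169 and 164 TPM across the vehicle libraries and 154, 146 and 144 TPM across the Aβ42 libraries, and the 16 auxiliary genes to 572, 624 and 616 TPM across the vehicle libraries and 506, 531 and 529.8 TPM across the Aβ42 libraries, in both cases with no overlap between groups. The 8 metabotropic receptors summed to 70.9, 75.05 and 68.9 TPM across the vehicle libraries and 64.5, 63.7 and 63.03 TPM across the Aβ42 libraries, again lower without overlap. The 7 NMDA subunits summed to 77.03, 86.05 and 71.7 TPM across the vehicle libraries and 70.8, 67.1 and 69.9 TPM across the Aβ42 libraries and the 4 AMPA subunits to 424, 448 and 456 TPM across the vehicle libraries and 435, 391 and 394 TPM across the Aβ42 libraries. All Aβ42 sums of the NMDA class lay below all vehicle sums, and the AMPA sums overlapped through Aβ42 replicate 1. The 3 transporters overlapped as well, at 127 ± 9.34 and 128 ± 5.64 TPM. Such totals follow the most abundant genes. In the auxiliary class NETO2 alone went from 219.9 ± 22.1 TPM in vehicle to 152 ± 22.2 TPM with Aβ42. The CACNG genes summed to 175.6 ± 4.09 and 170.1 ± 5.92 TPM and the CNIH genes to 180 ± 6.14 and 174.6 ± 6.93 TPM. Both of these sums overlapped between groups, so the auxiliary genes were not lower as a whole. Over all 45 members the sum was 1512 ± 40.1 TPM in vehicle and 1355 ± 23.9 TPM with Aβ42. In CPM it was 3025 to 3148 in vehicle and 2722 to 2861 with Aβ42.

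**Figure D4:**
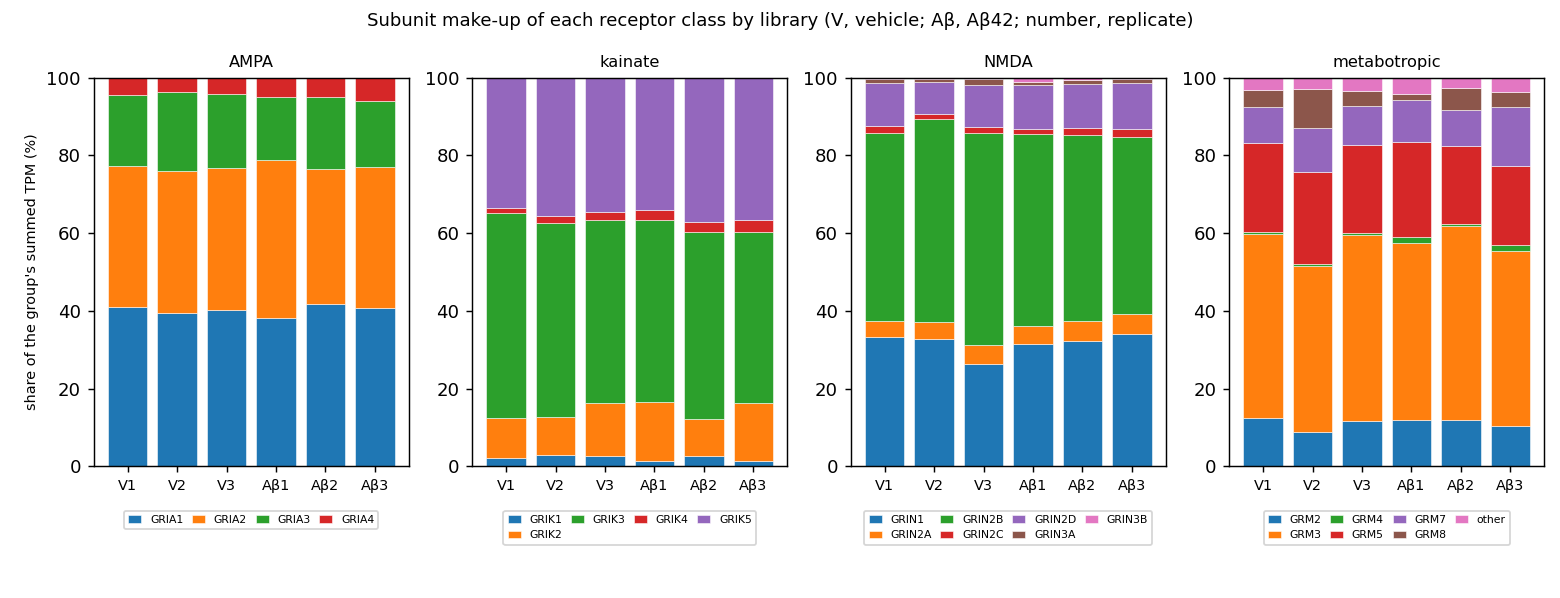
Share of the summed TPM of each receptor class taken by each subunit, as stacked bars from 0 to 100% for 3 vehicle (V) and 3 Aβ42 (Aβ) libraries; low metabotropic shares are pooled as other. GRIA1 and GRIA2, GRIK3 and GRIK5, GRIN2B and GRIN1, and GRM3 and GRM5 lead their classes in every library, and the GRM8 share is highest in vehicle replicate 2.

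Other genes of glutamate signalling were taken from lists of AMPA receptor biogenesis factors, scaffolds, kinases, transsynaptic organisers, glutamate uptake and metabolism, and metabotropic signalling. Of these genes, 114 were tested and 0 passed in edgeR without a block, while 30 had an unadjusted p-value under 0.05 (13 higher, 17 lower), or 26.3% against 23.9% of all genes. With the replicate block 18 passed, 8 higher and 10 lower, or 15.8% against 14.2% of all genes. Their median log2 fold change was -0.03. DESeq2 called 6 of the 114, against 5.88% of all genes, and limma-voom none. Without Aβ42 replicate 2 edgeR called 33, against 23.1% of all genes.

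With the block, NSG1, a trafficking factor of recycling endosomes (249 ± 12.8 to 206 ± 13.1 CPM, log2 fold change -0.27, 0.00163 with the block), and FRRS1L, which assembles AMPA receptors in the endoplasmic reticulum (134 ± 7.68 to 114 ± 5.91 CPM, log2 fold change -0.23, 0.0174 with the block), fell in edgeR, and PRRT2 (61.7 ± 3.55 to 73.1 ± 5.1 CPM, log2 fold change 0.24, 0.0114 with the block) rose. Of the scaffold list HOMER1, which links group I metabotropic receptors to calcium stores, fell (71.6 ± 3.3 to 61.7 ± 3.26 CPM, log2 fold change -0.21, 0.0312 with the block), and KIF17, the kinesin that carries GRIN2B, rose from a low level (1.27 ± 0.312 to 2.72 ± 1.23 CPM, log2 fold change 1.09, 0.0116 with the block). The calcium-dependent kinases PTK2B (14.6 ± 1.77 to 23.4 ± 1.69 CPM, log2 fold change 0.68, 0.000186 with the block), CAMK2D and CAMK2G (log2 fold changes 0.24 and 0.18) rose, while the RNA-editing enzyme ADAR fell (-0.16). Of the uptake and metabolism list the glial glutamate transporter SLC1A3 (762 ± 42.8 to 653 ± 92.2 CPM, log2 fold change -0.22, 0.00919 with the block), the glutamine transporters SLC38A1 and SLC38A2 (-0.31 and -0.17) and the cystine-glutamate exchanger SLC7A11 (-0.34) fell, and the glutaminase GLS2 rose from a low level (4.64 ± 1.14 to 7.36 ± 1.51 CPM, log2 fold change 0.66, 0.042 with the block). EPHB2 and the G protein subunit GNAQ also fell (-0.19 and -0.15). None of these genes passed in edgeR without the block, and the share called with it, 15.8%, was near the 14.2% of all genes. The groups overlapped for CAMK2G, ADAR, SLC1A3 and SLC7A11, with adjusted p-values in edgeR without the block of 0.139, 0.143, 0.195 and 0.332.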

How the data were processed

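Polyadenylated RNA of 6 libraries was sequenced after stranded library preparation, per the labels' protocols. The submitters' processing notes list GRCh38, FastQC, STAR 2.7.11b and featureCounts 2.0.6 with no role. For each gene the authors deposited estimated counts and TPM, by library. The file headers call the former read counts, yet 86.9% to 87.5% of them were whole (within 0.005), so reads shared between features may have been divided. The annotation, the strand setting and the handling of shared reads are not given in the sources used here. PCR reads without molecular identifiers are not independent molecules.

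Counts were rounded, filtered with filterByExpr, scaled by TMM and compared with edgeR 4.0.16 (quasi-likelihood, robust dispersion, two-sided, R 4.3.3), with Benjamini-Hochberg adjustment over 13842 genes. SE was taken from the fold change and the F statistic. CPM uses TMM-scaled library sizes. Alternatives used DESeq2 1.42.0, limma 3.58.1, log2(TPM + 1) and log2(TPM + 0.1), other scalings and filters, a replicate block, a correction for gene length (lowess, span 0.3) and each library left out. The scripts were tested on simulated data. The counts simulated for the edgeR fits held no replicate effect, so they cannot show how the block performs on paired libraries. Values of some genes are not reported here, though they stay in the counts and class totals. Among the members named, most space went to those with the smallest p-value in their class, those called with the block or without overlap, and the most abundant. The members and lists were chosen with earlier results of these data known.

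Deviations from the group means correlated at 0.181, 0.388 and 0.129 between libraries numbered 1, 2 and 3 (over 12186 well-counted genes). Every value exceeded 0.1, so replicate numbers were treated as pairs, on the evidence of the data alone. Libraries of different numbers were not compared in this way. No pair of libraries agreed within sampling noise (chi-square per gene 3.16 to 21.1), so all 6 were used. Positions are those of RefSeq on GRCh38.p14.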

Additional observations from a re-analysis of the deposited data

How the results depend on the processing

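The count of members past the adjusted threshold, 0 without a block, was 14 with the replicate block (5 higher, 9 lower), 16 with the replicate block and the length correction, 6 with DESeq2, 1 with no filter on low counts and 0 to 13 when libraries were left out singly, with calls only without Aβ42 replicate 2. For partner genes these counts were 18, 17, 6, 4 and 0 to 33. Over all genes the share called was 14.2% with the block, 5.88% with DESeq2 and 23.1% without Aβ42 replicate 2. Why these settings differ was not tested. At an unadjusted p-value under 0.05 the number of members was 13 to 22 over 18 alternatives. The 14 members called with the block kept their direction in every alternative, and 13 of them were among the 18 counted without adjustment or block. The same 14 passed with the block and the length correction, which added GRIA4 (0.0454) and CNIH1 (0.0316). Median log2 fold change fell with gene length, from 0.046 in the shortest of 5 equal length classes to -0.035 in the longest, which held 14 of 40 members with a length. After correction the median of the members was -0.06.

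Of 702 fits of 39 single members, 628 kept direction and side of the threshold, and 50 gained a call. The other 24, in 10 members, reversed in log2 fold change. DESeq2 gave no adjusted p-value for GRIN2C, GRIN3A, GRM4, GRM8, CACNG2 and CACNG3, and these fits were counted as not called. GRIA2 ran from -0.16 to 0.04 over libraries left out (reversed without Aβ42 replicate 2). GRIK2 ran from -0.09 to 0.26 over libraries left out (reversed without vehicle replicate 2 or Aβ42 replicate 1 or Aβ42 replicate 3) and was -0.01 (log2(TPM + 1)), -0.01 (log2(TPM + 0.1)). GRIN1 ran from -0.20 to 0.05 over libraries left out (reversed without vehicle replicate 2). GRIN2A ran from -0.04 to 0.13 over libraries left out (reversed without vehicle replicate 1 or Aβ42 replicate 3). GRIN2C ran from -0.15 to 0.20 over libraries left out (reversed without vehicle replicate 1 or Aβ42 replicate 1 or Aβ42 replicate 2) and was 0.01 (upper-quartile scaling), 0.01 (limma-voom), 0.00 (replicate block), 0.02 (length correction), 0.03 (replicate block with length correction). GRIN2D ran from -0.00 to 0.17 over libraries left out (reversed without vehicle replicate 2). GRM7 ran from -0.16 to 0.22 over libraries left out (reversed without vehicle replicate 1 or Aβ42 replicate 3). CACNG3 ran from -0.03 to 0.30 over libraries left out (reversed without vehicle replicate 2). GRIP1 ran from -0.09 to 0.02 over libraries left out (reversed without vehicle replicate 1 or Aβ42 replicate 2). SLC17A8 ran from -0.84 to 0.35 over libraries left out (reversed without vehicle replicate 2). The GRIA2 share difference was -1.05 to 1.85 percentage points over libraries left out, negative without Aβ42 replicate 1. With 3 libraries a group, the low counts of GRM4, GRIN3A and GRIN2C (15 to 58 per library) limit precision.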

Other observations

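Several CACNG genes lie close together, and tested members of the same cluster differed in direction. On chromosome 17, CACNG5 (chr17:66835117-66894751, RefSeq GRCh38.p14) had a log2 fold change of 0.44 ± 0.15 (SE) and CACNG4 (chr17:66964707-67033398) one of -0.32 ± 0.06, both past the threshold with the replicate block, and CACNG1 (chr17:67044554-67056797) had 1 to 6 counts per library. On chromosome 19, CACNG7 (chr19:53909278-53943950) was at 0.25 ± 0.07 and CACNG8 (chr19:53962937-53990215) at -0.13 ± 0.05, of which CACNG7 passed with the block, and CACNG6 (chr19:53991149-54012666) had 0 to 6 counts. The difference between neighbours was not tested.

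Members span long stretches of the genome. The median RefSeq gene span was 142.9 kb over the 41 tested members and 33.6 kb over 13816 tested genes with a span. Among members called with the block it was 137 kb for the 5 that rose and 239 kb for the 9 that fell. The median count of the tested members was 395 per library, against 506 over all tested genes.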
